A study of Homo sapiens with 6 samples.

Results

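The histone genes of the HIST clusters were examined in 6 RNA-Seq libraries in which the ubiquitin ligase adaptor SPOP was knocked down. The members are the genes whose deposited symbol starts with HIST1H, HIST2H, HIST3H or HIST4H, named for the gene cluster, and values listed under the same symbol were summed. This gave 70 members of 24551 genes in all: 55 in HIST1, 11 in HIST2, 3 in HIST3 and 1 in HIST4. By histone type, 6 members encode the linker histone H1, 16 encode H2A, 20 H2B, 12 H3 and 15 H4, and 1 row names an H2A and an H3 gene together (HIST1H2AD,HIST1H3D). 2 human lines were used, the prostate cancer line DU145 and the renal cell adenocarcinoma line 769-P. Each line gave 3 libraries, from cells that received a control siRNA (NC), SPOP siRNA 1 or SPOP siRNA 2. The 2 siRNA libraries of a line stand as its replicates of the knockdown (n = 2), the control of each line has none, and the p-values measure only the spread between the siRNA libraries.

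Core histones H2A, H2B, H3 and H4 form the protein spool that DNA wraps around, and H1 binds the linker DNA between spools. Most genes of the HIST clusters are switched on when DNA is replicated, and their messenger RNAs normally end not in a poly(A) tail but in a short stem-loop bound by SLBP, the stem-loop binding protein. Some of them also give longer, polyadenylated transcripts when the stem-loop is passed, for example in cells that have stopped dividing. The RNA measured here was selected on oligo-dT beads, which hold poly(A) tails. The values below are therefore the levels of what was retained by that selection and need not follow the total messenger RNA of a histone gene. In bulk samples, fewer cells in S phase and less RNA per cell cannot be told apart.

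SPOP itself, in FPKM (the fragments counted for a gene, divided by its transcript length and by the mapped fragments of the library), measured 16.1 in the DU145 control and 2.77 and 2.96 after siRNA 1 and 2, so that 17.2% and 18.4% were left. The 769-P libraries gave 11.6 for the control and 1.53 and 1.39 after siRNA 1 and 2, so that 13.2% and 12.04% were left. Of the cell type markers, PAX8, a renal transcription factor, lay at 106 to 125 FPKM in 769-P and at 1.10 to 1.47 in DU145, while EMX2 was at 0 in 769-P. The renal markers PAX2 (4.91 to 6.42 FPKM against at most 0.160) and LHX1 (35.8 to 58.3 against 9.80 to 17.5) were also higher in 769-P. The prostate genes HOXB13, KLK3 and KLK2 were at or near 0 in DU145 (at most 0.312 FPKM). Of the epithelial markers, KRT8 and KRT18 lay at 171 FPKM or more in all 6 libraries, EPCAM at 27.6 to 36.2 in DU145 and 2.95 to 4.92 in 769-P, and KRT19 at 384 to 462 and 0 to 3.56. CDH1, an adhesion protein of epithelium, had 8.87, 15.9 and 17.7 FPKM in the DU145 control and with siRNA 1 and 2, which was called higher by the rule used below, and at most 0.0977 in 769-P. The blood and endothelial markers PTPRC, CD3E, PECAM1 and VWF were at most 0.133 FPKM, while CD68 lay at 20.7 to 37.1 in DU145 and 54.5 to 74.7 in 769-P. Relative depth, from the steps between low values, ran from 0.681 to 1.41 of the 769-P control. The DU145 control and the 769-P library with siRNA 2 stood apart: 301 and 250 of 384 olfactory receptor genes, which should be silent in these cells, had a value above 0, while the remaining 4 libraries had 4 to 6. The same 2 libraries had the most HIST members above 0 in their line, with 47 members in the DU145 control against 36 and 32 with the siRNAs, and 38 members with siRNA 2 in 769-P against 27 with siRNA 1 and 23 in the control. The part of this low background in the results was not tested beyond subtracting the mean olfactory receptor value of each library.

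All 65 coding genes named in the member rows that could be matched to the GENCODE annotation of GRCh37 had a stem-loop within 150 bases after the stop codon. The 14 H4 genes began it with GGCCCT and 50 of the 51 others with GGCTCT. Sites of members that lead the results are shown, 5′ to 3′ on the strand of the gene, with the 16 bases of the stem-loop in capitals. They belong to HIST1H2BK (chr6:27114140-27114165, minus strand), HIST1H1C (chr6:26055967-26055992, minus strand), HIST1H2AC (chr6:26124892-26124917, plus strand), HIST1H2BC (chr6:26123695-26123720, minus strand), HIST1H4C (chr6:26104540-26104565, plus strand) and HIST1H4H (chr6:26285354-26285379, minus strand), all in the 3′ untranslated region.
HIST1H2BK: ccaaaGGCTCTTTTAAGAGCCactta
HIST1H1C: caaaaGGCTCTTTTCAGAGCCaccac
HIST1H2AC: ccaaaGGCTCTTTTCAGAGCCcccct
HIST1H2BC: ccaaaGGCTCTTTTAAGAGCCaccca
HIST1H4C: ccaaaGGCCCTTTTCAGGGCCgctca
HIST1H4H: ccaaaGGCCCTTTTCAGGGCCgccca
The H1, H2A and H2B sites shown share the 6 bases that open the stem, and both H4 sites carry the other form. In 18 of the genes an annotated transcript ran more than 50 bases past the stem-loop, and in 16 of these a transcript had AATAAA or ATTAAA, the signal for poly(A) addition, in its last 50 bases. HIST1H2AC, HIST1H2BC and HIST1H4H were among the 18. HIST1H2BK, HIST1H1C and HIST1H4C were not, their annotated transcripts ending 4 or 5 bases past the stem-loop. The annotation may be incomplete, since HIST1H2BK and HIST1H1C are on the list of members known for polyadenylated forms used further below.

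Few members had a level that could be followed across libraries. Of the 70 members, 14 were listed at 0 in every library, 56 had a value in at least 1, and 28 reached a mean of 1 FPKM over the 6 libraries, the minimum used for testing. HIST1H3A, with a mean of 1.03, was the lowest member inside this limit, and HIST1H3J, with 0.962, was the highest outside it. None of the 42 members left out exceeded 2.87 FPKM in any library. For 36 members the low values were near whole multiples of a shared step after correction for depth, judged up to 8 steps within 0.12 of a step or 4%. In 25 of the 36 this covered every library above 0, and in the others the larger values were only scaled from the step. Taking that step as 1 fragment, 22 of these 36 had at most 5 fragments in any library, so that most of the low values rest on very few reads. Of the 14 members at 0, 6 shared more than 50% of their 100-base windows with another gene, as the pair HIST1H4J and HIST1H4K did with each other, so reads from near-identical copies could have been split or set aside in the counting. HIST2H2BC, an annotated pseudogene, shared all of its windows with other entries, and its values are uncertain for that reason. The same limit holds in part for other tested members, among them HIST1H2AM (63.7% of windows shared), HIST1H2AI (58.8%), HIST2H2BF (24.7%) and HIST1H2BK (22.5%).

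The members were far higher in DU145 than in 769-P. Their summed level was 548 FPKM in the DU145 control, 744 with siRNA 1 and 978 with siRNA 2. For 769-P the sum was 64.1 FPKM in the control, 58.1 with siRNA 1 and 90.0 with siRNA 2. The lowest DU145 library thus lay well above the highest 769-P library. The line means were 757 ± 215 and 70.7 ± 16.9 FPKM (SD, n = 3 libraries each, the control and both siRNAs, which are not replicates). They differed 10.7-fold. The ratio was 30.2 for H1, 11.2 for H2B, 10.7 for H3 and 8.62 for H2A, but 2.10 for H4. A few genes made up most of the sum: HIST1H2BK and HIST1H1C together held 55.4% to 67.0% of it in the DU145 libraries and 22.9% to 36.4% in 769-P.

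**Figure D1:**
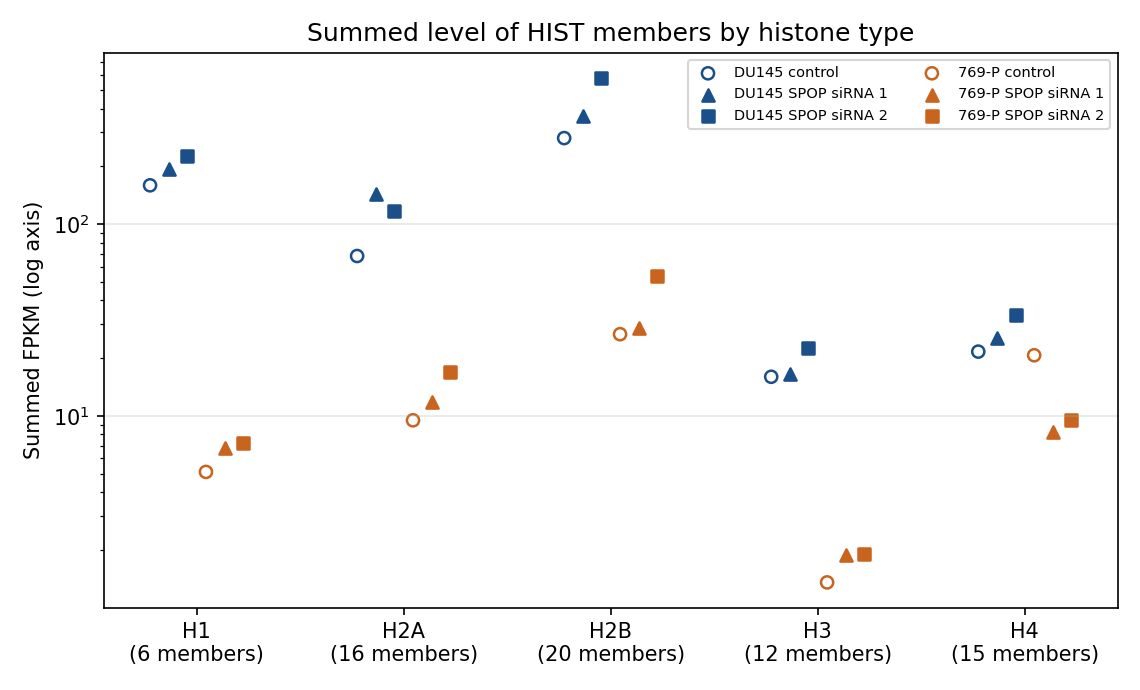
Summed FPKM (log axis) of all HIST members of each histone type in each of the 6 libraries, with open circles for controls, triangles for SPOP siRNA 1 and squares for SPOP siRNA 2. Every DU145 library lies above every 769-P library for each type, but for H4 the DU145 control (21.6) and the 769-P control (20.7) nearly meet.

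With all 70 members counted, whether or not they reached the minimum, 14 were separated between the lines by at least 2-fold, meaning that the lowest library of one line lay at least 1 above the highest library of the other on log2(FPKM + 1). All 14 were higher in DU145, and 0 were higher in 769-P. Over all 24551 genes, 5.52% were separated in this way with DU145 higher, and over the 11865 genes that reached the minimum the share was 10.9% with DU145 higher and 4.75% with 769-P higher. By type, the 14 comprised 7 H2B genes, 4 H2A genes and 1 each of H1, H3 and H4. By cluster they comprised 11 genes of HIST1, 2 of HIST2 and 1 of HIST3.

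HIST1H1C, which encodes a linker histone (chr6:26055968-26056698), showed the widest gap. It had 156 FPKM in the DU145 control, 192 with siRNA 1 and 224 with siRNA 2, against 4.42, 6.18 and 5.96 in the 769-P control and with siRNA 1 and 2. The groups did not overlap, and limma put the line difference at 4.87 on the log2 scale with a standard error of 0.15 and an adjusted p of 0.000235. HIST1H2BK, an H2B gene (chr6:27114140-27114634), was the most abundant member. It had 196, 221 and 431 FPKM in the DU145 control and with siRNA 1 and 2, and 10.3, 13.9 and 26.8 in the same order in 769-P. Its libraries did not overlap between the lines either, and limma gave a difference of 4.03 with a standard error of 0.37 and an adjusted p of 0.00110. In both lines its highest value was the library with siRNA 2.

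HIST1H2AC and HIST1H2BC, an H2A and an H2B gene that start back to back, followed the same order of lines. HIST1H2AC (chr6:26124373-26139344) had 36.8, 93.4 and 87.2 FPKM in the DU145 control and with siRNA 1 and 2, and 4.34, 2.51 and 7.98 in 769-P. HIST1H2BC (chr6:26086545-26124154) had 10.4, 30.9 and 37.7 FPKM in DU145 and 0.745, 0.689 and 1.04 in 769-P. By limma the line difference on the log2 scale was 3.42 (SE 0.39, adjusted p = 0.00194) for HIST1H2AC and 3.47 (SE 0.20, adjusted p = 0.000347) for HIST1H2BC. HIST1H3H, an H3 gene, was listed at 0 in all 769-P libraries and had 4.37, 10.2 and 9.39 FPKM in DU145. HIST1H4H, an H4 gene, had 6.97, 13.1 and 22.6 FPKM in DU145 and 0.958, 0 and 1.33 in 769-P.

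**Figure D2:**
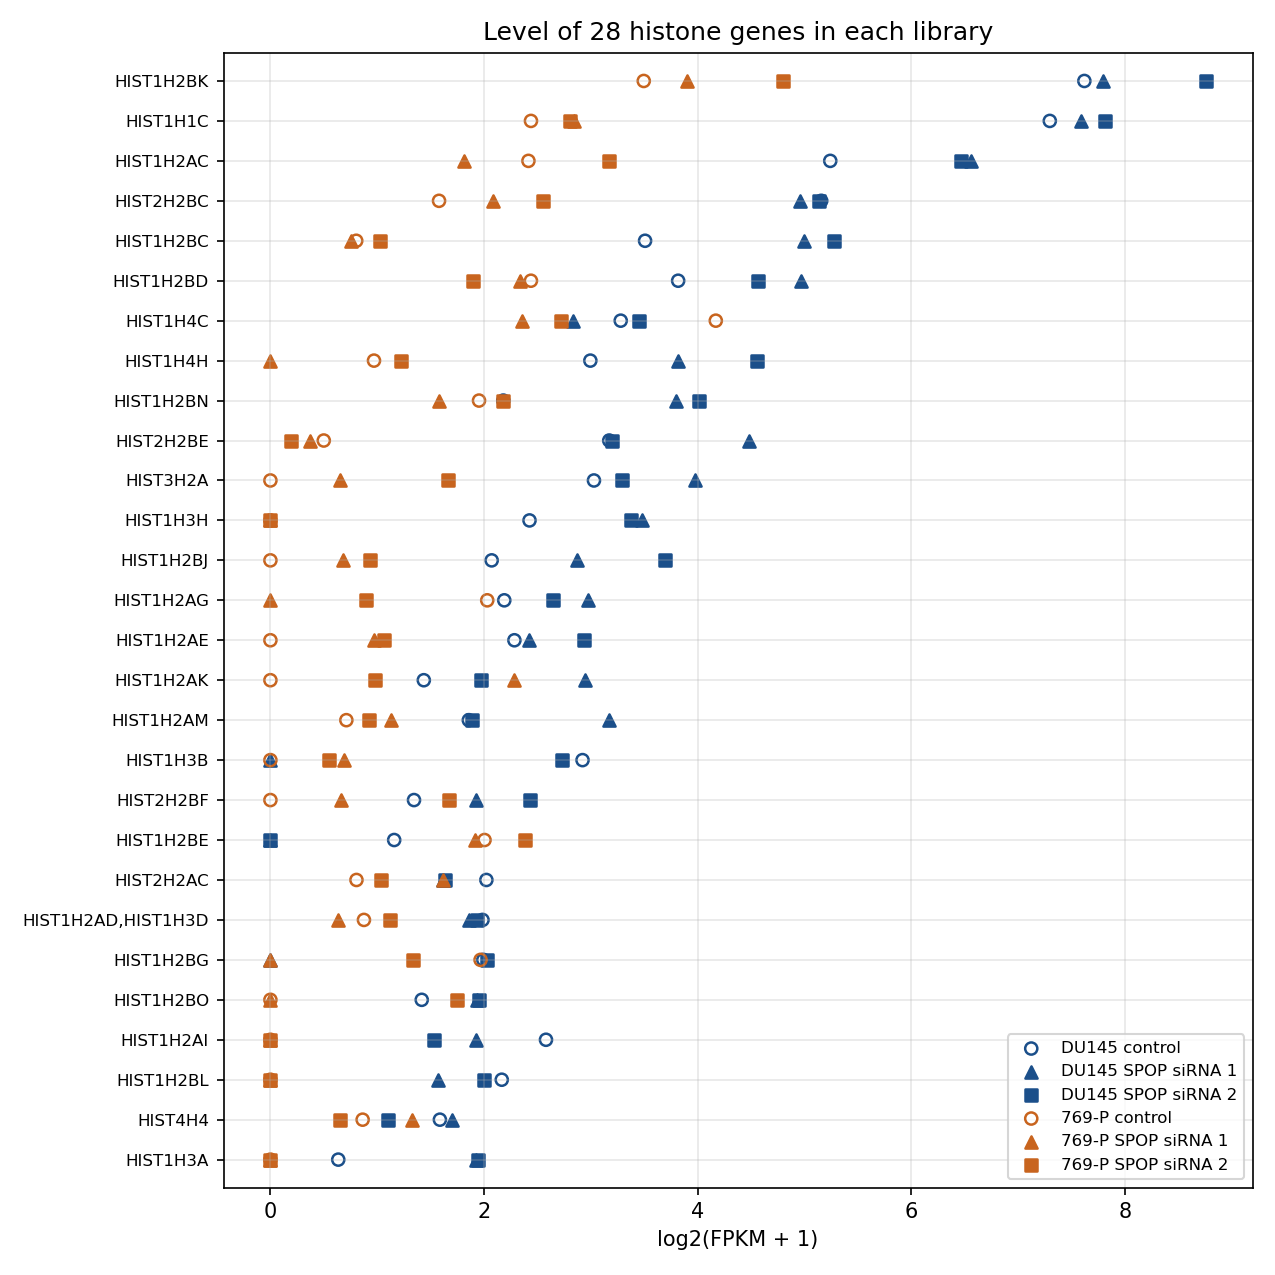
Level as log2(FPKM + 1) of the 28 members that reached the minimum, ordered by mean level, in each of the 6 libraries (blue, DU145; orange, 769-P; open circles, controls; triangles, SPOP siRNA 1; squares, SPOP siRNA 2). Blue points lie right of all orange points for HIST1H1C, HIST1H2BK, HIST1H2AC and HIST1H2BC, whereas for HIST1H4C the 769-P control lies highest.

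Of the other members above 2-fold separation, HIST1H2BD, HIST1H2BJ, HIST1H2BL, HIST1H2AE and HIST1H2AI lay between 1.14 and 1.57 apart on the log2 scale, and HIST1H2AI and HIST1H2BL were at 0 in every 769-P library. HIST1H2BE went the other way. It had 3.01, 2.78 and 4.21 FPKM in the 769-P control and with siRNA 1 and 2, 1.23 in the DU145 control and 0 with either siRNA in DU145. In implied fragments this is only 2, 2 and 4 in 769-P and 1, 0 and 0 in DU145. The lines did not overlap, but the gap of 0.76 stayed under the 2-fold limit, which it passed with a pseudocount of 0.1 and without the DU145 control. HIST1H4C, the H4 gene with the highest mean, had 8.71, 6.12 and 9.96 FPKM in DU145 and 17.0, 4.12 and 5.60 in 769-P, so its lines overlapped, with a limma difference of -0.14 (SE 0.25, adjusted p = 0.676).

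With limma (a linear model with spread shared across genes), 22 of the 28 members tested passed an adjusted p of 0.05 between the lines, 21 of them higher in DU145 and 1, HIST1H2BE, higher in 769-P. The background is high, since 42.1% of all genes tested passed. The count is no support for a line difference over the members, because 16 of the 28 had a mean below 1 FPKM in 769-P and reached the minimum through DU145. Without the minimum, 17 of 70 members passed, against 18.6% of all genes.

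The tested HIST2, HIST3 and HIST4 members lie outside the large cluster of chromosome 6. HIST2H2BE (chr1:149856009-149858232), an H2B gene, had 8.01, 21.3 and 8.19 FPKM in the DU145 control and with siRNA 1 and 2, and 0.414, 0.291 and 0.146 in 769-P. HIST2H2BC had 34.7, 30.0 and 34.1 FPKM in DU145 and 1.99, 3.23 and 4.88 in 769-P. HIST3H2A (chr1:228622478-228645574), an H2A gene, had 7.16, 14.7 and 8.79 FPKM in DU145 and 0, 0.575 and 2.17 in 769-P. These 3 were separated 2-fold between the lines. HIST2H2BF had 1.54, 2.79 and 4.41 FPKM in DU145 and 0, 0.576 and 2.18 in 769-P. HIST2H2AC had 3.06, 2.07 and 2.10 in DU145 and 0.748, 2.07 and 1.04 in 769-P. HIST4H4 (chr12:14920933-14924065), an H4 gene outside the clusters of chromosomes 1 and 6, had 2.003, 2.25 and 1.15 in DU145 and 0.819, 1.51 and 0.571 in 769-P, and the lines of each of these last 3 overlapped.

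**Figure D3:**
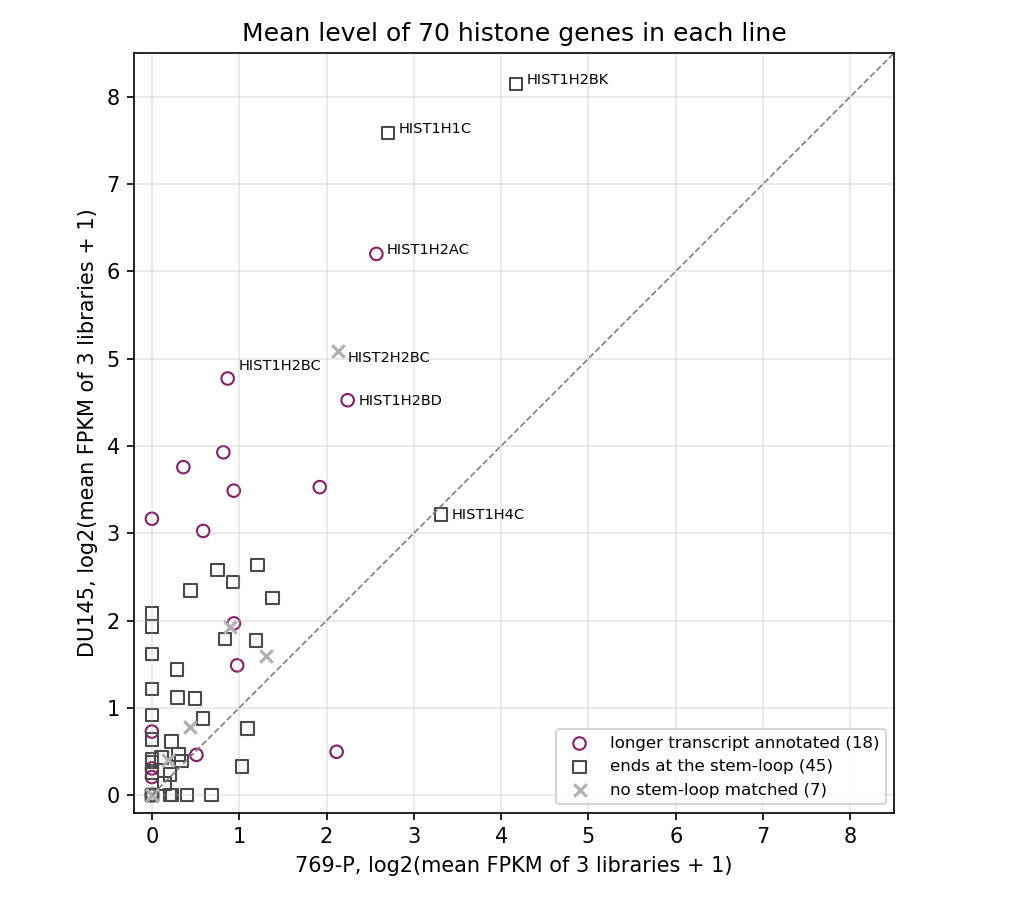
Mean level of each of the 70 members over the 3 libraries of DU145 (vertical axis) against 769-P (horizontal axis), as log2(mean FPKM + 1), with the dashed line marking equal levels. Purple circles are the 18 genes with an annotated transcript past the stem-loop, dark squares the 45 without one and grey crosses the 7 not matched to a stem-loop. The crosses include the joint row HIST1H2AD,HIST1H3D, which was not matched by its joint symbol, although both of its genes have a stem-loop. HIST1H2BK and HIST1H1C, both squares, lie highest.

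Genes with longer annotated transcripts had the higher median level. The 18 genes with a transcript past the stem-loop had a median of 5.03 FPKM over the DU145 libraries and 0.633 over the 769-P libraries, and 12 of them reached the minimum for testing. The 45 genes without one had medians of 0.383 and 0.153, and 13 reached it. Of the genes separated 2-fold between the lines, 8 had a longer transcript and 5 did not, and HIST2H2BC was not matched. These are descriptions of the annotation and the levels, not of which transcript was sequenced, since the values are summed per gene.

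With SPOP knocked down in DU145, 8 of the 28 members tested were at least 1.5-fold higher on log2(FPKM + 1) with both siRNAs and 2 were at least 1.5-fold lower. The same held for 4.72% of all 11865 genes tested in the higher direction and for 1.19% in the lower direction. The 8 were HIST1H2AC, HIST1H2BC, HIST1H2BD, HIST1H2BJ, HIST1H2BN, HIST1H3A, HIST1H3H and HIST1H4H. The 2 lower members were HIST1H2AI and HIST1H2BE. The median log2 fold change was 0.61 over the members and 0.09 over all genes tested, and with single siRNAs the member medians were 0.55 and 0.49. At 2-fold, 4 members were higher (HIST1H2AC, HIST1H2BC, HIST1H2BN and HIST1H3A, against 0.666% of all genes tested) and 1 was lower (HIST1H2BE, against 0.329%). In sign alone, 18 of the 28 were higher and 7 lower with both siRNAs, but the same count over all genes tested was not made. Both siRNAs were set against the same control library. The medians over all genes tested were also above 0, at 0.07 with siRNA 1 and 0.12 with siRNA 2. With the olfactory receptor background subtracted, 10 members were called higher and 1 lower of the 27 that then reached the minimum. HIST1H2AK, HIST1H2BO and HIST2H2BF were then called higher, by 1.22, 0.72 and 1.04 on the log2 scale, the call of HIST1H2AI was lost and HIST1H3A fell below the minimum. The minimum was taken over all 6 libraries, so values after knockdown helped decide which members were tested. HIST1H3A, at 0.553 FPKM in the DU145 control and 0 in 769-P, reached it through the siRNA libraries. With no minimum, 11 of 70 members were higher and 11 lower, and the member median was 0. The share of all genes was not taken at that setting.

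HIST1H2BC stood at 10.4 FPKM in the DU145 control and at 34.3 ± 4.81 (SD, n = 2 siRNAs) after knockdown, which is 2.98-fold the control with siRNA 1 and 3.63-fold with siRNA 2. In implied fragments this is 17 in the control, 29 with siRNA 1 and 35 with siRNA 2, at unequal depth. HIST1H2BC is among the genes the study itself chose from these libraries for display, so its direction is not independent evidence. HIST1H2BN, another H2B gene (chr6:27806323-27823487), had 3.53 FPKM in the control, 12.9 with siRNA 1 and 15.2 with siRNA 2, and both siRNA libraries lay above the control by more than they differed. Its implied fragments were 6, 13 and 15 in the same order. Its log2 change of 1.73 (SE 0.33, limma adjusted p = 0.711) was the largest among the 8, followed by HIST1H2BC with 1.63 (SE 0.28, limma adjusted p = 0.603).

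The H2A gene HIST1H2AC stood at 36.8 FPKM in the control and at 90.3 ± 4.36 after knockdown, with 48, 72 and 66 implied fragments in the control and with siRNA 1 and 2. HIST1H2BD, an H2B gene (chr6:26158350-26171577), had 13.1, 30.2 and 22.7 FPKM in the control and with siRNA 1 and 2. HIST1H2BJ, also H2B (chr6:27093676-27100574), had 3.20, 6.31 and 11.9 FPKM, and HIST1H4H had 6.97, 13.1 and 22.6. The siRNA libraries of HIST1H2AC, HIST1H2BD, HIST1H2BJ and HIST1H4H lay above the control in FPKM. In implied fragments, at unequal depth, HIST1H2BJ had 6, 7 and 13 and HIST1H4H 9, 9 and 16, so these changes rest on few reads. In FPKM, the 2 siRNAs of HIST1H2BJ and HIST1H4H differed from each other by more than siRNA 1 differed from the control. On log2(FPKM + 1) this did not hold for HIST1H4H, with changes of 0.82 for siRNA 1 and 1.56 for siRNA 2. HIST1H3H stood at 4.37 FPKM in the control and at 9.77 ± 0.544 after knockdown. HIST1H3A (chr6:26020679-26021186) had 0.553 FPKM in the control, 2.80 with siRNA 1 and 2.85 with siRNA 2, which are 1, 3 and 3 implied fragments.

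The 2 most abundant members were not among those called. HIST1H2BK in DU145 was 1.13-fold the control with siRNA 1 and 2.20-fold with siRNA 2, and HIST1H1C 1.23-fold and 1.43-fold. HIST2H2BE had the reverse order, with 2.66-fold for siRNA 1 and 1.02-fold for siRNA 2. The lower call of HIST1H2AI, at 4.98 FPKM in the control, 2.80 with siRNA 1 and 1.90 with siRNA 2, was the one lost with the background subtracted. HIST1H2BE rested on 1 implied fragment in the control and 0 with either siRNA. HIST1H3B, an H3 gene, had 6.58, 0 and 5.65 FPKM and was not called, since only siRNA 1 differed.

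None of the DU145 changes passed limma. At an adjusted p of 0.05, 0 of 28 members passed, with a smallest adjusted p of 0.603, and 0.135% of all genes tested passed. SPOP, the gene targeted, did not pass either (limma adjusted p = 0.134), so this test cannot show that a member was unchanged. An unadjusted limma p under 0.05 was found for 8 members and for 744 of all 11865 genes tested. Without the minimum 6 of 70 members passed, against 4.83% of all genes, and 5 of the 6 were listed at 0 with both siRNAs, which leaves no spread between replicates. By type, the 8 higher members comprised 4 of 12 H2B genes tested, 1 of 8 H2A, 2 of 3 H3, 1 of 3 H4 and 0 of 1 H1. All 10 members called belonged to HIST1, which holds 22 of the 28 tested. Of the 12 tested members with an annotated transcript past the stem-loop, 7 were among the higher and 1 among the lower, and of the 13 without one, 1 was higher and 1 lower.

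**Figure D4:**
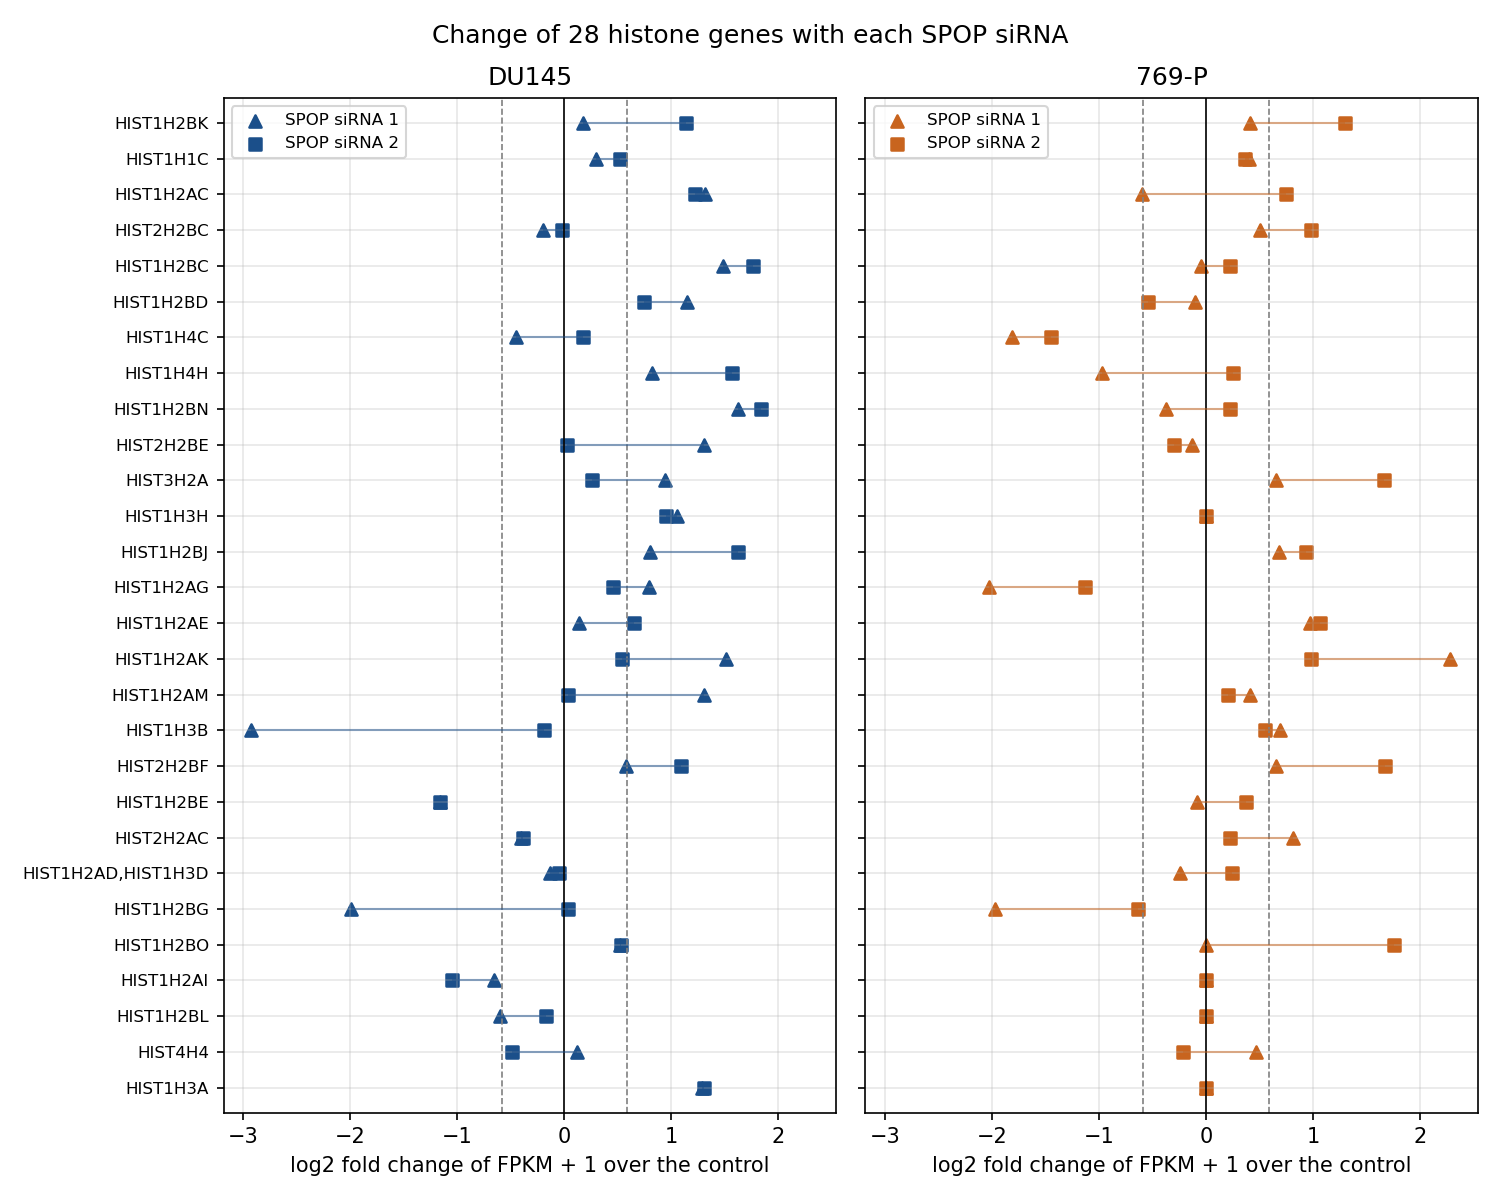
Log2 fold change of FPKM + 1 over the control of the line for the 28 members tested, with SPOP siRNA 1 (triangles) and siRNA 2 (squares), in DU145 (left) and 769-P (right). Dashed lines mark 1.5-fold. In DU145 both symbols lie right of the dashed line for 8 members, with HIST1H2BN and HIST1H2BC farthest, and in 769-P both lie left of it for HIST1H4C, HIST1H2AG and HIST1H2BG.

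In 769-P, 5 of the 28 members tested were at least 1.5-fold higher with both siRNAs and 3 were at least 1.5-fold lower, against 3.60% and 3.73% of all genes tested. These calls rest on low values. All 5 of the higher members (HIST1H2AE, HIST1H2AK, HIST1H2BJ, HIST2H2BF and HIST3H2A) were listed at 0 in the 769-P control, so no fold is given for them. HIST1H2AK had the highest value among them, 3.84 FPKM with siRNA 1 and 0.968 with siRNA 2. HIST1H2AE had 0.963 and 1.09, and HIST1H2BJ 0.600 and 0.907. Of the 3 lower members, HIST1H2AG (3.08 FPKM in the control, 0 with siRNA 1 and 0.863 with siRNA 2) and HIST1H2BG (2.91, 0 and 1.52) were also at 0 with siRNA 1. At 2-fold, 0 members were higher and 2, HIST1H2AG and HIST1H4C, were lower, against 0.657% and 0.565% of all genes tested.

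HIST1H4C was the 1 member called in 769-P without a 0 in any library of the line. It had 17.0 FPKM in the control, 4.12 with siRNA 1 and 5.60 with siRNA 2, so that the siRNA libraries held 0.242 and 0.330 of the control value. On the log2 scale this was a change of -1.63 (SE 0.35, limma adjusted p = 0.643). The median change over the members was 0.11, against -0.03 over all genes tested. By limma 0 of 28 members passed an adjusted p of 0.05 in 769-P, and 0.101% of all genes tested passed. SPOP did not pass there either (limma adjusted p = 0.0948). Before adjustment, 4 members and 827 of all 11865 genes tested had a limma p under 0.05. Without the minimum 1 of 70 members, HIST2H3D, which was at 0 with both siRNAs, passed, against 0.603% of all genes.

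The knockdown was not shown to act differently on the members in the 2 lines. The difference of the 2 changes gave 0 of 28 members at an adjusted p of 0.05 by limma, and 0.169% of all genes tested passed. Before adjustment, 8 members and 325 of all 11865 genes tested had a limma p under 0.05. Without the minimum 6 of 70 members passed, against 4.90% of all genes. HIST1H2BJ was the single member called in both lines, higher in each. HIST1H2BC, which was called in DU145, was 0.924-fold and 1.40-fold the control with siRNA 1 and 2 in 769-P, at 1 or 2 implied fragments a library. HIST1H2BN, also called in DU145, had 2.87, 1.99 and 3.51 FPKM in the 769-P control and with siRNA 1 and 2.

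H2A and H2B genes often lie head to head and share the DNA between their starts. In the GRCh37 annotation, 10 such pairs of members were found, with 303 to 381 bases between the 2 coding starts, and in 6 both genes were tested. The promoters of H2A and H2B genes are known for the octamer ATTTGCAT, which binds the factor OCT1 encoded by POU2F1. It was found on either strand in 11 of 14 H2A and 14 of 18 H2B promoters with a RefSeq sequence, in 1 of 11 H3 and in 0 of 6 H1 and 0 of 12 H4 promoters, against 1.77% of all 35116 promoters, each being 250 bases before to 50 after the start. CCAAT was found in every promoter of the H1, H2A, H2B and H3 genes and in 3 of 12 H4 promoters, against 34.6% of all, and TATAAA in 50% to 72.7% by type, against 11.5%. A match to these letters is a description and not a site of binding.

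The windows of HIST1H2BC, which was called in DU145, and of HIST1H2BK, the most abundant member, are shown because both belong to head-to-head pairs. They are on the minus strand of GRCh38.p14, at chr6:26123877-26124176 and chr6:27146809-27147108, with the octamer, CCAAT and the TATAAA letters on either strand in capitals. Where matches of TATAAA on the 2 strands overlap they form 1 longer run.
HIST1H2BC: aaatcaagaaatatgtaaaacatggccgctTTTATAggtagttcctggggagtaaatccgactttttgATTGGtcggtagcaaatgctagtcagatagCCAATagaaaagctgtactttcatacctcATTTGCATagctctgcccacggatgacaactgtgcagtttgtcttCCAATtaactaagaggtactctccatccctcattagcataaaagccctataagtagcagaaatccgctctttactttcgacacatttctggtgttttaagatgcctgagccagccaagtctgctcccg
HIST1H2BK: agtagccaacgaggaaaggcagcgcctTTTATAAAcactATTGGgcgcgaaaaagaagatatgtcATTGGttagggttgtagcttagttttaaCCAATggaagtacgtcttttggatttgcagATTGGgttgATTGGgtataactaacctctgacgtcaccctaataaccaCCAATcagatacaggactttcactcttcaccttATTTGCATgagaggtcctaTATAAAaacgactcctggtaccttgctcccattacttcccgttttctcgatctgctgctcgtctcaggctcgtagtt
Both windows hold the octamer once and CCAAT on both strands.

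Levels and calls differed between neighbours in several pairs. The pair HIST1H2AC and HIST1H2BC, with 328 bases between the coding starts, had both genes called in DU145, by 1.27 and 1.63 on the log2 scale. HIST1H2BK lay at 196 to 431 FPKM in DU145, while its neighbour HIST1H2AH, 330 bases away, had 1.60, 0.902 and 0 FPKM in the control and with siRNA 1 and 2 and was not tested. HIST1H2BN was called and its neighbour HIST1H2AK was not, with 1.71, 6.72 and 2.93 FPKM in DU145, but HIST1H2AK was called higher with a pseudocount of 0.1 (by 1.33) and with the olfactory receptor background subtracted (by 1.22), so that both genes of this pair were called under these settings. HIST1H2BJ was called and HIST1H2AG was not. HIST1H2AG, with 3.56, 6.88 and 5.24 FPKM, was also higher with both siRNAs, by 0.79 and 0.45 on the log2 scale. Of the other tested pairs, HIST1H2AI was called lower and HIST1H2BL was not. Neither gene was called in HIST1H2AM and HIST1H2BO or in HIST2H2AC and HIST2H2BE. HIST1H2BE, which stood higher in 769-P, is in none of the 10 pairs.

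Of 18 tested genes of histone gene transcription and 3′ end processing, 0 were called higher or lower in DU145, and 1, LSM11, a protein of the U7 ribonucleoprotein, was lower in 769-P, with 4.89, 2.42 and 1.89 FPKM in the control and with siRNA 1 and 2. SLBP had 72.1, 67.4 and 70.7 FPKM in DU145 and 86.2, 62.0 and 61.3 in 769-P. POU2F1 lay between 0.780 and 1.31 FPKM in all 6 libraries. Of 11 tested histone genes outside the clusters, whose messenger RNAs are mostly polyadenylated, 0 were called in either line. In this list H1F0, a linker histone, was higher in DU145, with 100.0, 117 and 76.7 FPKM against 0.394, 0 and 1.04 in 769-P, and H2AFJ, an H2A variant, with 8.91 to 13.9 FPKM in DU145 and 1.16 to 1.94 in 769-P. Both of these separated 2-fold and were singled out after their values were seen.

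Of 18 tested histone chaperone genes, CABIN1 was called higher in DU145 (7.05, 11.96 and 11.4 FPKM in the control and with siRNA 1 and 2) and none were called in 769-P. Of 18 tested genes of S phase, CCNE2, a cyclin, was called lower in DU145 (3.90, 2.04 and 1.96 FPKM) and GINS1, a replication factor, lower in 769-P (14.3, 7.88 and 8.75 FPKM), and the median changes of this list were -0.13 and -0.30. A list of 12 tested members known for polyadenylated forms was chosen with these data known. In DU145, 5 of them were called higher, against 4.72% of all genes tested, and 0 lower, against 1.19%. In 769-P, 3 were called higher, against 3.60%, and 0 lower, against 3.73%. These 3, HIST1H2BJ, HIST2H2BF and HIST3H2A, were all listed at 0 in the 769-P control. RNAs without a poly(A) tail that are no histone RNAs served as a measure of what escaped the selection, and 4 of them were tested. RPPH1 was called lower in DU145, with 4.50 FPKM in the control against 1.52 and 1.54 with siRNA 1 and 2, as was SCARNA2, with 1.95 against 0 and 0. In 769-P, RMRP was called higher, with 1.82, 8.21 and 7.45 FPKM, and SCARNA2 lower, with 3.18, 1.47 and 1.11. Whether the recovery of RNA without a tail had a part in the histone results was not tested.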

How the data were processed

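RNA-Seq was done on 6 libraries of RNA selected on oligo-dT beads. According to the submitters' processing notes and the methods, reads were trimmed with cutadapt, checked with FastQC, mapped to hg19 with TopHat2 and summarised with Cufflinks, and the authors deposited 1 FPKM value per gene row. Tool versions and the annotation are not given in the sources used here. The methods give 2 biological replicates, whereas the labels give 1 library per siRNA and control. FPKM keeps no counts. The relative depth was the most frequent ratio of low values to the 769-P control, and implied fragments are a description that entered no test. Values from 26006 rows were summed by symbol to 24551 genes, tested at a mean of at least 1 FPKM (11865 genes), and compared on log2(FPKM + 1), which understates changes of low genes. A gene was called when both siRNAs moved it at least 1.5-fold one way, or at 2-fold separation of all libraries between lines. limma 3.58.1 in R 4.3.3 was fitted with 4 groups and eBayes with a trend, adjusted by Benjamini-Hochberg. It was run on simulated data with a large known change and less spread than most members had. That does not show how well it finds changes of the members. An exact permutation of 3 libraries against 3 cannot give a p below 0.1. All 71 symbols in the member rows matched RefSeq, 68 matched GENCODE v44 lifted to GRCh37 and 61 had a RefSeq promoter (GRCh38.p14).

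Named are SPOP, the 3 highest members of each type, members called in a line, the 10 widest gaps between lines, tested members of HIST2, HIST3 and HIST4, HIST1H2BC, tested head-to-head pairs and called genes of the lists. The members and lists were chosen with earlier results of these data known. Alternatives were a 2-fold threshold, a pseudocount of 0.1, no minimum or a mean of 5 FPKM, the highest row of a repeated symbol, subtraction of the olfactory receptor background, median centring, leaving out single libraries, the mean of the siRNAs and, for limma, quantile normalization, no trend and a replicate block. Leaving out members listed at 0 was added after seeing the data. The results for 3 of the cell type markers are not reported here.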

Additional observations from a re-analysis of the deposited data

Results flagged for a closer look

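For 6 members, both siRNAs moved the level one way in DU145 and both moved it the other way in 769-P. How many of all genes did the same was not counted, so this is not shown to be particular to the members. In the 769-P control and with siRNA 1 and 2, HIST1H2AG had 5, 0 and 2 implied fragments. HIST2H2AC had 1, 3 and 2 there, and HIST2H2BE 4, 3 and 2. The values are the DU145 change minus the 769-P change on log2(FPKM + 1), and none passed limma's test of that difference after adjustment (adjusted p = 0.999 for each). HIST1H2AG, with a difference of 2.20 (standard error 0.61), was 0.79 and 0.45 higher in DU145 and -2.03 and -1.13 in 769-P with siRNA 1 and 2. HIST1H3B had a difference of -2.18 (standard error 1.48), for which the DU145 library with siRNA 1 was at 0. HIST1H2BD differed by 1.27 (standard error 0.45), HIST2H2AC by -0.92 (0.46), HIST2H2BC by -0.85 (0.41) and HIST2H2BE by 0.89 (0.76). No group had the 4 libraries needed to look for single libraries far from the rest.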

How the results depend on the processing

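Every alternative tried kept DU145 as the line with more separated members. The 14 members separated between the lines became 9 with a mean of at least 5 FPKM, where 11 members are left, 18 with a pseudocount of 0.1 (17 higher in DU145, 1 higher in 769-P), and lay between 14 and 17 without single libraries, the 17 being without the DU145 control (16 and 1). The member then higher in 769-P was HIST1H2BE in both cases. Of the 22 members at an adjusted p of 0.05 between the lines, 10 of 11 passed with a mean of at least 5 FPKM. With that minimum 3261 of all 8086 genes passed. The 10 calls in DU145 became 5 at 2-fold (4 higher against 0.666% of all genes, 1 lower against 0.329%), 22 with no minimum (11 higher, 11 lower), 5 with a mean of at least 5 FPKM (5 higher, 0 lower) and 19 with the mean of both siRNAs. They ranged from 13 to 18 with 1 siRNA alone, the 18 being without siRNA 2. For siRNA calls, the share of all genes was taken only at 1.5-fold and 2-fold in the main setting. The other counts therefore have no background beside them. The 8 calls in 769-P became 2 at 2-fold, 13 with no minimum, 2 with a mean of at least 5 FPKM and 1 without members listed at 0 in a library of the line, and were 12 with either siRNA alone. The higher and lower calls in 769-P were 6 and 2 after centring on the median, against 5 and 3. The DU145 median of 0.61 became 0.69 with a pseudocount of 0.1, 0 with no minimum, 0.67 with a mean of at least 5 FPKM, 0.66 with background subtracted and 0.51 when centred, and 0.49 to 0.55 with 1 siRNA alone. The 769-P median ranged from 0 to 0.24 with 1 siRNA alone. With no minimum, limma passed 6 of 70 members in DU145 (4.83% of all genes), 1 in 769-P (0.603%) and 6 for the difference (4.90%). In DU145, 5 of the 6 were at 0 with both siRNAs and so had no spread. Replicate block: the siRNA numbers are shared by the lines, but 2 pairs are too few to show a pairing (correlation of siRNA 2 minus siRNA 1 between the lines 0.27 over all genes tested). With the block 0, 0 and 0 members passed for the knockdowns and their difference. Between the lines 25 members passed with the block, as did 5977 of all 11865 genes tested. For single genes, 452 results under alternatives kept their side of the 1.5-fold call, 40 gained it in the direction reported and 13 lost it, 11 of these at 2-fold. No called gene turned its sign. Genes not called turned it in 9 results, each without 1 siRNA library. HIST1H2AC in 769-P, at 0.07 with both siRNAs, was called lower by -0.60 without siRNA 2 and higher by 0.75 without siRNA 1. Precision is limited by the few fragments behind most members.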
